A study of Drosophila melanogaster with 4 samples.

Results

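The genes described here encode proteins that bind chitin, cut it, deacetylate it or make it, together with peritrophins and mucins. They were chosen by name: the current NCBI symbol had to begin with Peritrophin-, with obst-, or with Muc, Cht or Cda followed by a digit, or to be serp, verm, Gasp, kkv, mmy, knk, or 1 of 7 genes known only by a CG number (CG17826, CG7252, CG7017, CG5883, CG6933, CG6996 and CG7290). The NCBI table held 50 such genes, of which 47 had a probe, out of 12058 genes on the arrays. Muc30E, Muc68Ca and Muc68E were not found under a probe and are named only. A value in both biological replicates was present for 41 members, which are the members tested, out of 10042 genes tested in all. CG5883, CG7252, CG17826, CG7290, CG7017 and CG6933 are genes that the study grouped into chromosomal clusters on these same arrays, and CG6996 lies among them. The values of these genes are therefore not independent evidence of their direction.

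Chitin is a polymer of N-acetylglucosamine, and in insects it forms the scaffold of 2 kinds of extracellular layer. One is the cuticle, which epidermal and tracheal cells secrete on their apical side, and which is taken down and rebuilt at each molt. The other is the peritrophic matrix, a tube of chitin fibrils, peritrophins and mucins that surrounds the food in the midgut and keeps particles and microbes off the epithelium. Peritrophins and the obstructor proteins hold these fibrils through cysteine-rich chitin-binding domains. The polymer is made by a chitin synthase from UDP-N-acetylglucosamine, trimmed by deacetylases and degraded by chitinases.

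RNA of whole larvae was measured on spotted oligonucleotide arrays read in 2 colors. The mutant larvae were w1118;+;trxE3/trxB11, which carry a pair of different mutant alleles of trithorax (trx), the gene of a histone methyltransferase that keeps developmental genes active. The control was RNA of w1118;+;+ larvae of an isogenic line, pooled into 1 common reference. Larvae of both genotypes were in the third instar, were fed bromophenol blue so that the dye in the gut gave their stage, and were kept at 21 °C. In the mutant stocks, chromosomes X, Y and 2 had been taken from the isogenic line, whereas the third, which carries trx, is not given as replaced. The methods describe the larvae as wandering early in the instar and as Tb+, that is without the marker of the balancer chromosome. There were 4 arrays, from 2 biological replicates of mutant RNA with 2 arrays each. Each replicate was hybridized in both dye orientations: the mutant RNA was in Cy3 on arrays 1 and 3 and in Cy5 on arrays 2 and 4, and arrays 1 and 2 belong to replicate 1. Both arrays of a replicate received the same amplified RNA, from the mutant and from the reference. The replicates are separate RNA extractions, and the sources do not say whether they came from separate cultures, so a p-value measures only the spread between these extractions and leaves out the spread of the wild type.

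Every value below is a log2 ratio of mutant over wild type as the authors deposited it, so that 1 is 2-fold higher and -1 is 2-fold lower in the mutant. A gene was called when the mean of the 2 replicates differed from 0 in limma at a Benjamini-Hochberg adjusted p under 0.05, taken over all genes tested, and by at least 2-fold. By this rule 411 of 10042 genes (4.09%) were called, 158 higher (1.57%) and 253 lower (2.52%). Arrays of the same replicate correlated at a Pearson r of 0.90 and 0.88 over all genes, and arrays of different replicates at 0.71 to 0.82. The trx probe had values of 0.22, 0.13 and 0.28 on arrays 2, 3 and 4. Its mean was 0.21 (SE 0.0473, adjusted p = 0.0859), and whether the probe lies in a part of trx that the alleles alter is not known, so it does not check the labels.

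Of the 41 members tested, 9 were called, 4 higher and 5 lower. This is 22.0% of the members, beside 4.09% of all genes. The 4 higher genes were Peritrophin-15a, Peritrophin-15b, CG17826 and Muc11A. The 5 lower genes were Peritrophin-A, obst-B, obst-E, Cht7 and mmy. The median over the members was 0.0050, close to the -0.0198 of all genes, because members lay on both sides: 21 were above 0 and 20 below, beside 45.9% and 54.1% of all genes. A mean at least 2-fold higher was seen for 10 members and a mean at least 2-fold lower for 6, where either direction held 2.71% of all genes. Another 20 members lay within 1.5-fold of the wild type. Most of the 7 genes named by CG number were grouped into clusters by the study on these same arrays. Without these 7 genes, 35 tested members remained, of which 3 were called higher and 5 lower. Of the 35, 5 had a mean at least 2-fold higher and 6 a mean at least 2-fold lower. By kind of gene, 7 of 8 genes tested in the peritrophic matrix and 3L group had a mean above 0, the exception being CG6996, and 4 of 5 in the obstructor group of obst-A, obst-B, obst-E, Gasp and Peritrophin-A had a mean below 0, the exception being Gasp. The difference between kinds was not tested.

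**Figure D1:**
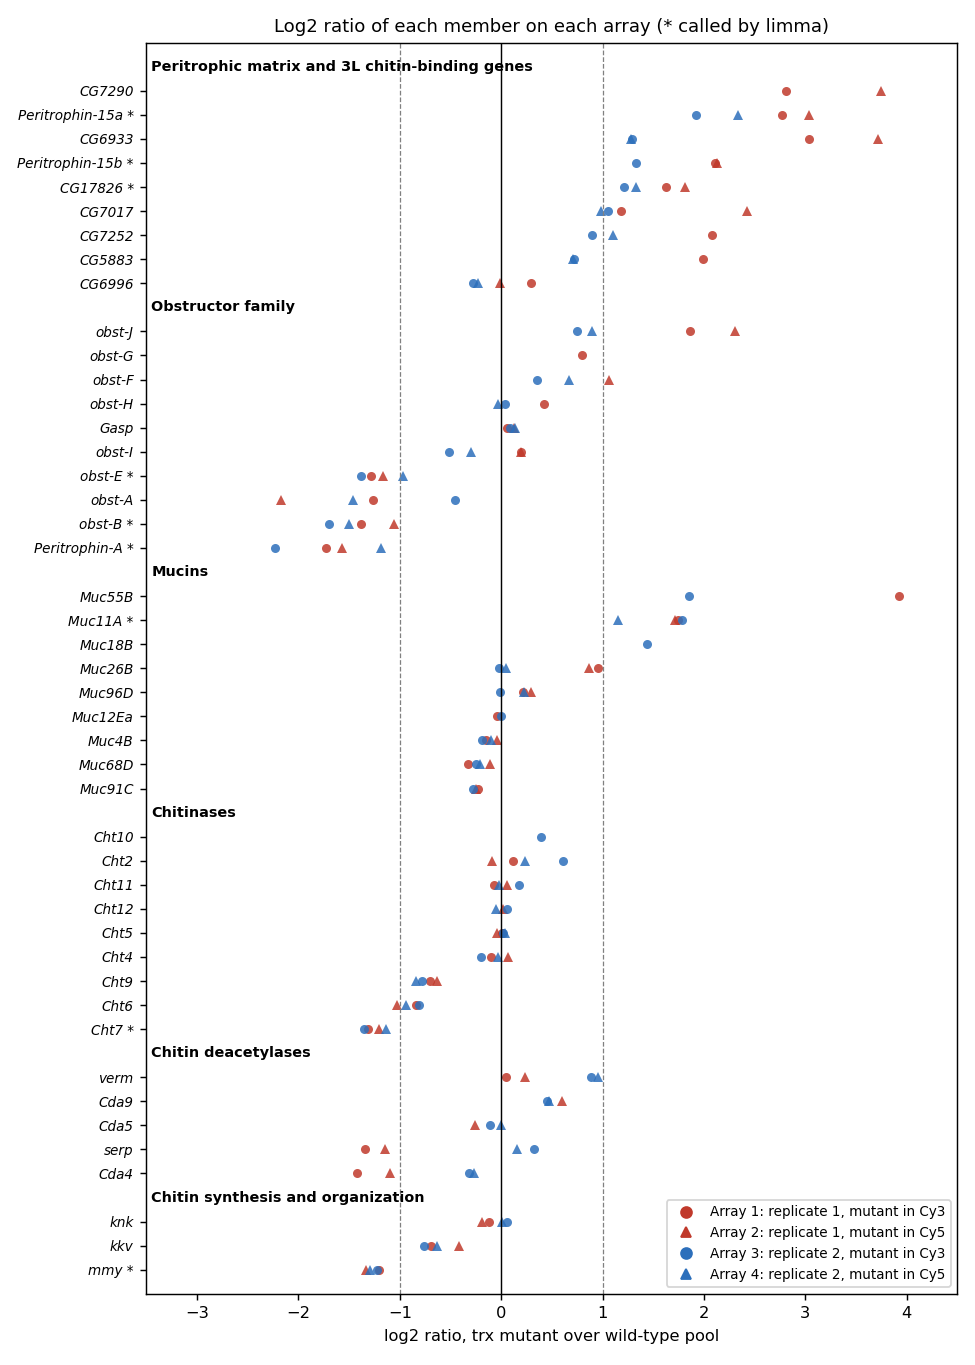
Log2 ratio of trx mutant over wild-type pool on each array (horizontal axis) for the 45 members with a value, by kind of gene and sorted by mean; color gives the biological replicate, shape the dye of the mutant RNA, dashed lines mark 2-fold and an asterisk marks the 9 genes called. The peritrophic matrix and 3L group sits to the right except for CG6996, and Peritrophin-A, obst-B, obst-A and obst-E sit to the left.

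Peritrophin-15a and Peritrophin-15b, small peritrophins named after a protein of the blowfly peritrophic matrix, were over-expressed in the mutant. Peritrophin-15a had log2 ratios of 2.77, 3.03, 1.92 and 2.34 on arrays 1 to 4. All arrays were far above 2-fold, and both arrays of replicate 1 were above both arrays of replicate 2. Its mean was 2.52 (SE 0.234, n = 2 replicates), which is 5.72-fold higher (limma, adjusted p = 0.0322). Peritrophin-15b had values of 2.11, 2.13 and 1.33 on arrays 1, 2 and 3 and none on array 4. It too was more than 2-fold higher on every array with a value, more so in replicate 1. Its mean of 1.72 (SE 0.241, 3.30-fold) was called at an adjusted p of 0.0491, close to the threshold, and this call ended with a robust prior (adjusted p = 0.0529). It also ended where each probe was fitted as a feature of its own (adjusted p = 0.0543; 1.53% of 10711 probes were called higher). Without array 3, replicate 2 had no value of Peritrophin-15b and the gene could not be tested. The 2 genes lie next to each other on 2L. In RNA of whole larvae, a different number of gut cells and a different amount of RNA per cell cannot be told apart, and the same holds for each gene below.

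The other members of this group are the genes with CG numbers, which encode proteins of the chitin-binding peritrophin type and lie on 3L. Of 8 genes tested in the group, 3 were called higher, beside 1.57% of all genes. A mean at least 2-fold above the wild type was seen for 7, beside 2.71% of all genes. Most of the genes with CG numbers were grouped into clusters by the study on these same arrays, so these counts are not independent evidence. The median of the group was 1.52, with 2.03 in replicate 1 and 1.14 in replicate 2. CG17826 is the gene of this kind that was called: its values were 1.62, 1.81, 1.21 and 1.33. All 4 arrays lay above 2-fold and within a range of 0.60. The mean was 1.49 (SE 0.141, 2.82-fold, adjusted p = 0.0325), and the call was kept under every alternative run.

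CG7252 and CG5883, the neighbors of CG17826, had no value on array 2. CG7252 had 2.07, 0.90 and 1.10 on arrays 1, 3 and 4, a mean of 1.54 (SE 0.325, adjusted p = 0.0800). CG5883 had 1.99, 0.72 and 0.71, a mean of 1.35 (SE 0.382, adjusted p = 0.119). For both genes the single array of replicate 1 was more than 1 log2 unit above the mean of replicate 2, and neither was called. The gene at the end of this run of 4, obst-G, had a value only on array 1 (0.80) and was not tested.

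CG7290, CG6996, CG7017 and CG6933 stand side by side in a second stretch of 3L. CG6933 had the largest fitted difference among these genes, with 3.03 and 3.72 in replicate 1 and 1.29 and 1.28 in replicate 2. The arrays of a replicate were close and the replicates were far apart. The mean was 2.33 (5.03-fold), but the SE was 0.625 and the adjusted p 0.111. CG7017 had 1.18, 2.42, 1.05 and 0.99, so that array 2 stood alone above the others. Its mean of 1.41 (SE 0.239, 2.66-fold) missed the threshold at an adjusted p of 0.0624. Without array 2 the mean was 1.10 and the gene was called (adjusted p = 0.0190), and it was also called without array 4 (1.43, adjusted p = 0.0446). CG7290 had 2.81 and 3.75 on the arrays of replicate 1 and no value in replicate 2, so it was not tested.

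CG6996, in the middle of these high neighbors, was not among them. Its values were 0.30, -0.01, -0.28 and -0.23, on both sides of 0. The mean was -0.06 (SE 0.127, adjusted p = 0.770), and the sign turned without array 2 (0.02). It was the lowest member of the group and the only one of its 8 genes tested with a mean below 0.

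In the order of protein-coding genes in the NCBI table, CG5883, CG7252, CG17826 and obst-G are adjacent, with no other gene between them. The second stretch runs from obst-J to CG6933 over 12 genes, of which 6 are members and 6 are not. Of 10 genes tested in it, limma called none in either direction. An unadjusted limma p under 0.05 was seen for 6, of which CG7335 and CG42674 were lower than the wild type. Over all 10042 genes tested, 1747 were higher and 2086 lower at this unadjusted threshold. The members were not the only genes of the stretch above the wild type. CG7298, between obst-F and CG7290, had 1.87, 2.24, 0.42 and 0.26 (mean 1.20, SE 0.515, adjusted p = 0.208). The naming rule leaves CG7298 out, but the paper lists it in a cluster found from genes annotated as chitin binding. The paper's clusters of this kind also list CG17145 and CG17147, beyond CG6933, and CG7248, beyond obst-G. CG17145 had a mean of 0.35 and CG17147 a mean of 0.58, both below 2-fold and not called by limma (adjusted p = 0.163 and 0.122). CG7248 had a single value, 0.49 on array 3, and was not tested. Ssk, which encodes a membrane protein of the septate junctions of the gut, had 1.88 on array 1 and 0.38 on array 3 (mean 1.13, SE 0.449, adjusted p = 0.187). Other genes of the stretch were below or at 0, such as CG7335 with a mean of -0.30 and CG7328 with 0.05. On 3L lay 17 of the 47 members, including 6 of the 10 members at least 2-fold higher and 1 of the 6 at least 2-fold lower.

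**Figure D2:**
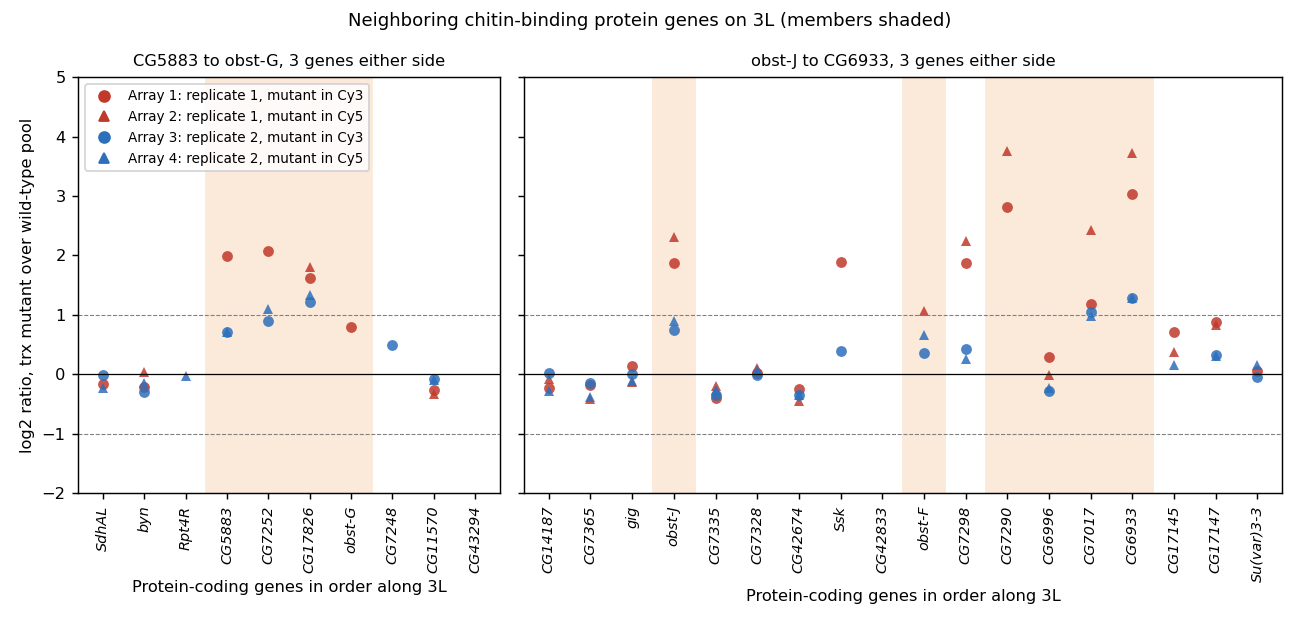
Log2 ratio of trx mutant over wild-type pool on each array (vertical axis) for the protein-coding genes of 2 stretches of 3L in chromosomal order, with members on a shaded background, 3 flanking genes on each side and genes without a value left blank. CG5883, CG7252 and CG17826 stand above their flanks, and in the second stretch CG6996 is near 0 between CG7290 and CG7017. CG7298, which only the naming rule leaves out of the members, reaches 2.24.

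Digestive enzymes, taken as markers of the midgut, where the peritrophic matrix surrounds the food, were also higher in replicate 1. The list held 25 trypsins, Jonah proteases, amylases and maltases, of which 20 were tested, with means from -0.60 to 3.13. Of these 2 were called higher by limma, beside 1.57% of all genes. They were Jon25Bii (mean 2.85, adjusted p = 0.0439) and Jon65Aiv (mean 3.13, adjusted p = 0.0378). A mean at least 2-fold above the wild type was seen for 10 of the 20, beside 2.71% of all genes. The median of the 20 was 0.96, and it was 1.68 in replicate 1 and 0.14 in replicate 2. The peritrophic matrix group had 2.03 and 1.14 in the same replicates. Other tissue lists were also higher in replicate 1, so the split was not particular to gut genes. Medians in replicates 1 and 2 were 1.68 and 0.48 for 3 fat body markers and 1.85 and 0.20 for 3 salivary gland markers. For 8 haemocyte markers they were 0.46 and 0.10. The 3 larval epidermis markers had -3.67 and -3.80, and btl, the only tracheal marker tested, was lower in replicate 1 (-0.43 and -0.20). The enzymes went both ways in replicate 2, where 6 of the 20 were at least 2-fold higher, among them Jon65Aiv with 2.56, Jon25Bii with 2.26 and Jon65Aiii with 1.42. In replicate 1 this was so for 12 of the 20. In the peritrophic matrix group 7 of 8 genes were at least 2-fold higher in replicate 1 and 5 of 8 in replicate 2. Most genes of that group belong to clusters that the study chose on these same arrays. Its counts and medians are therefore not independent evidence beside those of the enzymes. The part of gut content in the values of these members was not tested.

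**Figure D3:**
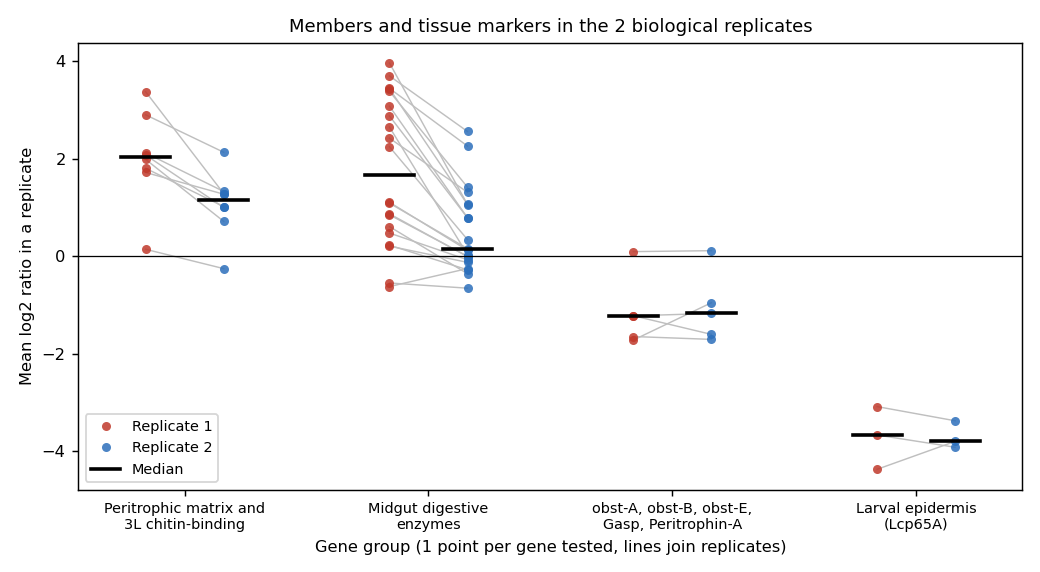
Mean log2 ratio in each biological replicate (vertical axis) of every gene tested in 4 groups, with a line joining the replicates of a gene and a black bar at the median. The median of the midgut enzymes is 1.68 in replicate 1 and 0.14 in replicate 2, that of the peritrophic matrix group 2.03 and 1.14, and the obstructor genes shown, other than Gasp, and the larval epidermis markers lie below 0 in both.

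The obstructor family encodes secreted proteins with several chitin-binding domains, found in the cuticle of the epidermis and trachea. The family is given here in a first and a second part. The first part holds obst-A, obst-B, obst-E, Gasp and Peritrophin-A, the last of which has obst-D as a synonym. Of these 5 genes 3 were called lower, beside 2.52% of all genes, and the median was -1.34. The second part, the 5 genes obst-F to obst-J, had 4 tested and a median of 0.50. None of the 4 was called by limma. When the 4 arrays were taken as independent, 1 was called higher, beside 2.39% of all genes. At an unadjusted p under 0.05, 2 of the 4 were higher, beside 1747 of all 10042 genes. The difference between the 2 parts was not tested.

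Peritrophin-A had values of -1.73, -1.57, -2.23 and -1.19. Every array was more than 2-fold lower, and the arrays with the mutant in Cy3 were the lowest of their replicates. The mean was -1.68 (SE 0.0502, 3.20-fold lower, adjusted p = 0.0192), the strongest decrease among the members tested. The replicate means were close (-1.65 and -1.71), and the SE leaves out the spread between arrays, which had a range of 1.04. obst-B had -1.38, -1.06, -1.70 and -1.50. Again all arrays were more than 2-fold lower, replicate 2 the more so, and the mean was -1.41 (SE 0.123, 2.66-fold, adjusted p = 0.0305). Both calls were kept under every alternative run.

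obst-A, which organizes the chitin matrix of the epidermal and tracheal cuticle and lies next to Peritrophin-A on X, had -1.26, -2.18, -0.45 and -1.46. In this gene the arrays with the mutant in Cy5 were lower by about 1 log2 unit in either replicate. The mean was -1.34 (2.53-fold), with an SE of 0.233 and an adjusted p of 0.0640, so it was not called. It was called without array 2 (-1.11, adjusted p = 0.0259) and without array 3 (-1.59, adjusted p = 0.0306).

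obst-E, a cuticle protein on which the body shape of the pupa depends, had -1.28, -1.16, -1.38 and -0.97. The mean was -1.20 (SE 0.0492, 2.30-fold, adjusted p = 0.0192) and the gene was called lower. Array 4 was just inside 2-fold, so a rule of 2-fold on every array, which 1.75% of all genes passed as lower, left it out. The gene has 2 probes, and they disagreed. The first had -2.20, -1.62, -2.96 and -1.53 (mean -2.08, SE 0.111, adjusted p = 0.0248 among probes, of which 2.39% were called lower). The second had -0.37, -0.70, 0.19 and -0.41 (mean -0.32, SE 0.138, adjusted p = 0.213). The called value of obst-E is therefore the average of a probe more than 2-fold lower on every array and a probe nearer 0. Which transcripts each probe reads is not known here.

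Gasp, a chitin-binding protein of the tracheal tubes, differed from the rest of the first part. Its values of 0.06, 0.13, 0.09 and 0.14 spanned 0.08, the mean was 0.10 (SE 0.0474) and the adjusted p 0.224. Among the genes of the second part, obst-J had 1.87, 2.31, 0.75 and 0.90. Replicate 1 was above 2-fold and replicate 2 below it, and the mean of 1.46 (SE 0.380, 2.74-fold) was not called (adjusted p = 0.106). obst-F had 1.06, 0.35 and 0.67 on arrays 2, 3 and 4 (mean 0.78, adjusted p = 0.0844). obst-H had a mean of 0.21, and obst-I was above 0 on both arrays of replicate 1 and below 0 on both of replicate 2 (mean -0.11).

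Genes of the larval cuticle and of the trachea were read beside the obstructor genes. Of 7 markers of the larval epidermis, 3 were tested (Lcp65Ac, Lcp65Ae and Lcp65Ag2, which encode larval cuticle proteins). All 3 were called lower, beside 2.52% of all genes, with a median of -3.79. The Lcp65A genes belong to a cluster that the study chose on these arrays, so they are not independent evidence of direction. Of 3 tracheal markers, only btl was tested (mean -0.31). The part of the amount or state of epidermis in the lower obstructor genes was not tested.

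Mucins are large secreted glycoproteins whose sugar chains hold water and form the gel of mucous layers. Of 8 mucin genes tested, 1 was called, and it was higher, beside 1.57% of all genes called higher. Muc11A had 1.74, 1.72, 1.79 and 1.15. Its arrays were above 2-fold throughout, with array 4 apart from the other 3. The mean was 1.60 (SE 0.0903, 3.03-fold, adjusted p = 0.0217), and the call was kept under every alternative run. Among the members at least 2-fold higher it had the closest replicates.

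Muc55B had the highest mean of all members tested, 2.89 (7.40-fold), and was not called. It had a value only on the arrays with the mutant in Cy3, 3.92 on array 1 and 1.85 on array 3. It passed a rule of 2-fold on every array with a value, which 1.32% of all genes passed as higher. A dye effect cannot be told apart from the difference for this gene, and with an SE of 0.619 its adjusted p was 0.0817. Muc26B had 0.95 and 0.86 in replicate 1 and -0.02 and 0.05 in replicate 2, so that only replicate 1 differed from the wild type (adjusted p = 0.309). The other 5 mucins tested lay between -0.26 and 0.18. The lowest was Muc91C, with -0.23, -0.25 and -0.28 on arrays 1, 2 and 3 (SE 0.0490, adjusted p = 0.0696). Muc18B had a single value, 1.44 on array 3, and Muc14A had none.

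Chitinases cut the polymer, in the old cuticle before a molt and in the gut. Of 8 chitinase genes tested, 1 was called lower, beside 2.52% of all genes. Cht7 had -1.32, -1.21, -1.36 and -1.14. The arrays spanned only 0.22, and the mean was -1.25 (SE 0.0473, 2.38-fold, adjusted p = 0.0192), a call kept under every alternative run. Cht6 and Cht9 were lower at an adjusted p under 0.05 but by less than 2-fold. Cht6 had -0.84, -1.03, -0.81 and -0.94 (mean -0.91, SE 0.0504, adjusted p = 0.0214). Cht9 had -0.70, -0.64, -0.79 and -0.84 (mean -0.74, SE 0.0638, adjusted p = 0.0302). With no minimum fold, 8.18% of all genes were lower at this threshold.

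The other 5 chitinases tested, Cht2, Cht4, Cht5, Cht11 and Cht12, had means between -0.07 and 0.22. Cht2 was the highest, with 0.12, -0.09, 0.61 and 0.23 (SE 0.131, adjusted p = 0.314). Cht5 was close to the wild type on every array, between -0.04 and 0.04. Cht10 had 1 value, 0.40 on array 3, and Cht8 had none. Cht8, Cht12, Cht4 and Cht9 are adjacent on 2R. Of the 3 tested in this run, Cht4 and Cht12 lay between -0.20 and 0.07 on all arrays with a value and Cht9 was below 0 on all 4.

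Chitin deacetylases remove acetyl groups from the polymer and change its packing. Of 5 genes tested, limma called none. Cda9 alone had an unadjusted p under 0.05, with 0.60, 0.46 and 0.47 on arrays 2, 3 and 4 (mean 0.53, SE 0.0623, adjusted p = 0.0409), which is below 2-fold; 6.49% of all genes were higher at this threshold with no minimum fold. When the 4 arrays were taken as independent, none of the 5 was called either. In serp, Cda4 and verm the replicates lay far apart. serp, a secreted deacetylase that limits the length of tracheal tubes, had -1.35 and -1.15 in replicate 1 and 0.33 and 0.16 in replicate 2. The replicates lay on opposite sides of 0, and the mean of -0.50 had an SE of 0.447 (adjusted p = 0.466). Cda4 had -1.43 and -1.10 in replicate 1 and -0.32 and -0.27 in replicate 2 (mean -0.78, SE 0.294, adjusted p = 0.175). It was the lowest member of the group. Cda5 had a mean of -0.16.

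verm, the partner of serp in the trachea and its neighbor on 3L, was also higher in replicate 2 than in replicate 1, but above 0 in both. The average of its probes was 0.05 and 0.24 in replicate 1 and 0.89 and 0.95 in replicate 2 (mean 0.53, SE 0.237, adjusted p = 0.218). The 3 probes of verm differed. One had -0.45, -0.30, 0.93 and 0.91 (mean 0.27), the next had -0.07, 0.13 and 0.16 on arrays 1, 3 and 4 (mean 0.04), and the last had 0.66, 0.78, 1.60 and 1.78 (mean 1.20, SE 0.296, adjusted p = 0.103 among probes). All 3 were higher in replicate 2 than in replicate 1, and their mean ratios ranged from 0.04 to 1.20. The verm transcripts are alternatively spliced, and which of them each probe reads is not known here.

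**Figure D4:**
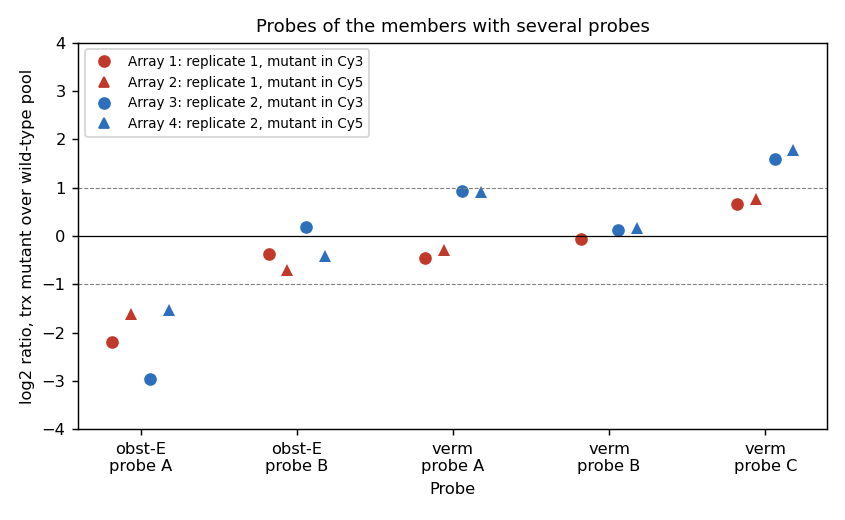
Log2 ratio of trx mutant over wild-type pool on each array (vertical axis) for each probe of obst-E and verm, the 2 members with several probes; color gives the biological replicate and shape the dye of the mutant RNA. The first obst-E probe lies between -2.96 and -1.53 while the second lies between -0.70 and 0.19, and all verm probes are higher in replicate 2.

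Of the genes that make and order chitin, mmy was called lower. mmy encodes the pyrophosphorylase that forms UDP-N-acetylglucosamine, the substrate of chitin synthase. Its values of -1.20, -1.33, -1.23 and -1.29 spanned 0.13, the mean was -1.26 (SE 0.0471, 2.40-fold) and the adjusted p 0.0192. kkv, the chitin synthase of epidermis and trachea, was lower on every array, with -0.69, -0.42, -0.77 and -0.63. Its mean of -0.63 (SE 0.0638, 1.54-fold, adjusted p = 0.0349) was below the 2-fold limit. knk, which encodes a protein that protects and orders newly made chitin, had -0.12, -0.19, 0.05 and 0.00 (mean -0.06, SE 0.0718, adjusted p = 0.564).

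A list of 18 further genes of the chitin pathway, taken from general knowledge, was read in the same fit. Of these 15 had a probe and 13 were tested. None was called higher by limma, beside 1.57% of all genes, and 1 was called lower, beside 2.52%. At an unadjusted p under 0.05, 4 were higher, beside 1747 of all 10042 genes, and 3 were lower, beside 2086. The called gene was reb, which encodes a membrane protein that kkv needs to deposit chitin, with -1.51, -1.39, -1.44 and -1.19 (mean -1.38, SE 0.0614, 2.60-fold, adjusted p = 0.0192). It was the lowest of the list, and its decrease was of the size of that of mmy. exp, which acts in the same step as reb, had a mean of 0.05. Chs2, the chitin synthase of the midgut, had a probe without a value on any array. The highest of the list was Idgf1, a chitinase-like growth factor, with 0.84, 0.62, 0.63 and 0.61 (mean 0.68, SE 0.0577, adjusted p = 0.0299), below 2-fold. nst, which acts before mmy in the synthesis of the substrate, had a mean of -0.47 (adjusted p = 0.0349), and Treh, the trehalase that feeds the pathway, 0.35 (adjusted p = 0.0470). The median of the list was 0.07, beside -0.02 for all genes.

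The higher and the lower members differed in how far the replicates lay apart. All 10 members with a mean at least 2-fold higher had the larger ratio in replicate 1, with medians of 2.08 in replicate 1 and 1.28 in replicate 2. Among all 272 genes at least 2-fold higher this was so for 184 (67.6%). The median distance between replicates was 0.93 for the 10 members and 0.69 for the 272 genes. Of the 6 members at least 2-fold lower, 4 had the larger change in replicate 1, the medians were -1.26 and -1.25, and the median distance was 0.05, against 0.20 for the 272 genes at least 2-fold lower. Of the 10 higher members 4 were called, and of the 6 lower ones 5. Among all genes, 158 of the 272 at least 2-fold higher were called, and 253 of the 272 at least 2-fold lower. The 6 higher members that were not called (Muc55B, CG6933, CG7252, obst-J, CG7017 and CG5883) had an SE between 0.239 and 0.625. When the 4 arrays were taken as independent samples, which treats dye swaps of the same RNA as replicates, all 10 were called (2.39% of all genes were called higher under that fit). The number was also 10 with the replicate as a random block (2.39% of all genes), and 8 with a dye term (2.27%). The correlation estimated for the block was -0.112, so that fit made no allowance for RNA shared by the arrays of a replicate. Of all 41 members tested, 26 had the larger change in replicate 1. By dye, 3 of the 9 higher members with both dyes had the larger change with the mutant in Cy3, as had 4 of the 6 lower members and 22 of the 39 tested members with both dyes.

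**Figure D5:**
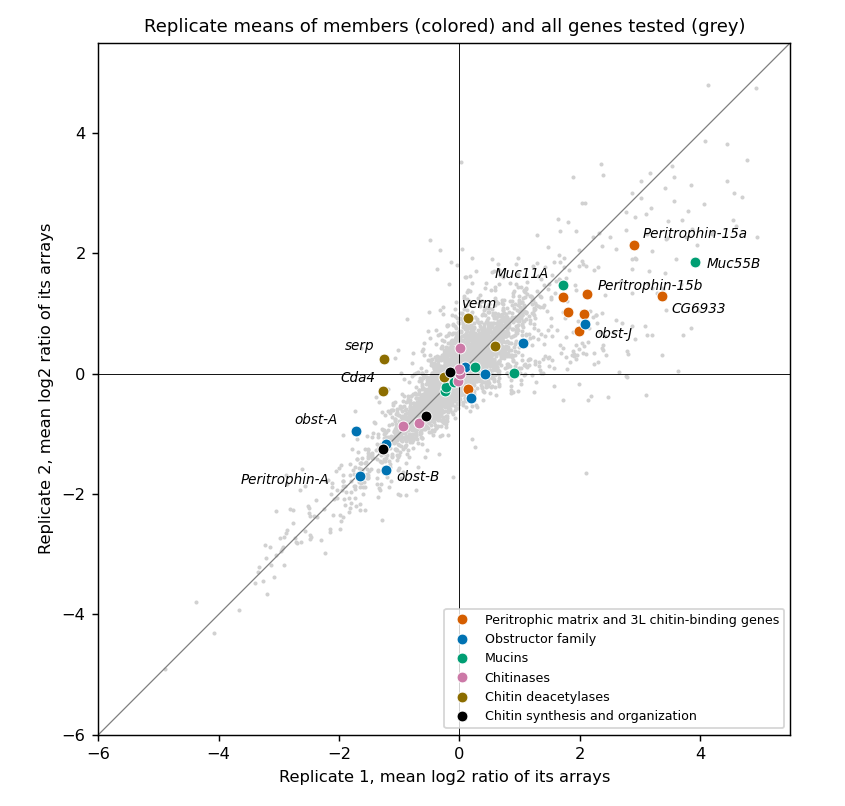
Mean log2 ratio in replicate 1 (horizontal axis) against replicate 2 (vertical axis) for all genes tested (grey) and for the members by kind of gene (colored), with the line of equal values. The 10 members at least 2-fold higher lie below the line, that is higher in replicate 1, while most lower members lie close to it and serp and verm lie to its left.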

How the data were processed

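The series holds 4 arrays of whole larvae. The authors deposited 1 log2 ratio of mutant over wild type per spot: per the study's methods, spots failing quality thresholds were removed, background was corrected with the normexp method of limma, each array was normalized with OLIN and arrays were scaled by their median absolute deviation. All pairs of arrays correlated above 0, so no sign was turned here. The deposited log2 values carry no intensities, so signal over background is unknown, and precision is set by how few arrays there are. Of 16416 spots, 11199 to 12775 had a value on an array.

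Genes were assigned from the platform annotation: 13164 probes name 1 gene, 101 that name several or none and 3151 that are not listed were left out. Current symbols, chromosome arms and gene order came from the NCBI table (Release 6 plus ISO1 MT) for 12653 probes, and 511 kept the platform symbol. Its build is not that of the arrays, so no coordinates are given, and no sequences were used here.

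Probes were averaged per gene and array, then arrays per replicate, and the 2 replicate means were fitted in limma 3.58.1 (R 4.3.3) with moderated variance (prior df 1.8, prior SD 0.083). The SE of genes with nearly equal replicates rests mainly on this prior. The fit was tested on simulated data. Members and lists were chosen with earlier results of these data known. Named are members called, members at least 2-fold from the wild type, the 7 CG-numbered genes, the highest and lowest of each kind and members not tested; others named once were chosen after their values were seen. Alternatives were a fit of 4 independent arrays, a dye term, a random replicate block, complete genes only, median centring, quantile normalization, a robust prior, other call rules, single probes and each array left out. Of 6 fat body markers 3 were tested, all with a mean above 0. Among them limma called Lsp2 higher (mean 3.98, adjusted p = 0.0142). Of 6 salivary markers 3 were tested, 2 above 0 and 1 below. Sgs5, with values only on arrays 1 and 3, was called higher (mean 3.78, adjusted p = 0.0431). Both means were above that of every member tested. Of 8 haemocyte markers tested, limma called none. At an unadjusted p under 0.05, 3 of these were higher, beside 1747 of all 10042 genes, and 1 was lower, beside 2086.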

Additional observations from a re-analysis of the deposited data

Results flagged for a closer look

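Of 18 named members with a value on all 4 arrays, 2 had 1 array apart from the other 3. Chance gives about 1 in 20 for independent values, and here arrays share RNA in pairs, so that rate need not hold. CG7017 was 2.42 on array 2, with the other arrays between 0.99 and 1.18. Muc11A was 1.15 on array 4, with the other arrays between 1.72 and 1.79.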

How the results depend on the processing

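Of 115 alternative values of the 9 called members, single probes apart, 113 were still called, the exceptions being Peritrophin-15b with a robust prior and obst-E under 2-fold on every array. With single probes, Peritrophin-15b was not called. The number of higher members, 4, was 10 with 4 independent arrays, 8 with a dye term and 10 with a random block, and in the peritrophic matrix group 3 became 7, 6 and 7. In the obstructor family 0 became 1, 1 and 1, and among mucins 1 became 2 with independent arrays, 2 with the block and 2 under 2-fold on every array. With no minimum fold there were 8 lower members instead of 5, 3 lower chitinases instead of 1, 2 lower genes of synthesis instead of 1, 1 higher deacetylase instead of 0, and in the pathway list 2 higher instead of 0 and 2 lower instead of 1. The median of the members, 0.0050, was -0.0644 with complete genes, 0.0281 after centring, 0.0134 and 0.0109 in replicates 1 and 2, 0.0109 and -0.0176 with the mutant in Cy3 and Cy5, and -0.0528 to 0.0043 with each array left out. CG6996 ranged from -0.1339 to 0.0209 with each array left out. The causes were not tested. A planned count of genes by a cysteine motif in their proteins was not run, since no protein sequences were used here.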
